A study of Mus musculus with 15 samples.

Results

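The proteasome genes described here are the 48 genes, of 24421 listed in the authors' tables, whose symbol is Psm followed by a letter from a to g and a number. The rule reads the symbol and no measured value. The rule takes the core subunits (Psma and Psmb), the subunits of the regulatory particle with 3 of its assembly chaperones (Psmc and Psmd), the activators (Psme), an inhibitor (Psmf1) and the assembly chaperones of the core (Psmg). It does not take Adrm1, Shfm1 and Pomp, which also belong to the proteasome or its assembly and are given with the related genes near the end.

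RNA was sequenced from a line of mouse biliary epithelial cells, derived from bile ducts of adult animals of the C57BL/6 strain. All cells, the controls included, carried ITR-CreERT2, a Cre recombinase that tamoxifen activates, and floxed alleles of Klf5 (ITR-CreERT2;Klf5flox/flox). Cells received 4-OH tamoxifen, or ethanol as EtOH control. There were 4 tamoxifen and 4 ethanol libraries at 24 h, and 4 tamoxifen and 3 ethanol libraries at 12 h. Whether the cells were sampled as structures grown in vitro, as the study's title has it, or taken from animals, as its design text has it, was not settled. The labels name a single line, and cells without the floxed alleles that received tamoxifen are not among the groups, so the loss of Klf5 and other effects of tamoxifen or of active Cre cannot be told apart. The authors' tables give 1 mean, 1 fold and 1 standard error (SE) per gene and time and no value per library, so levels per sample are not shown, and the p-values measure the spread between libraries of 1 line, which may be technical.

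The proteasome is the large protease that degrades proteins tagged with ubiquitin chains. Its barrel-shaped 20S core is a stack of rings, with alpha subunits on the outside that gate entry and beta subunits inside, of which Psmb5, Psmb6 and Psmb7 carry the peptide-cutting sites. The 19S regulatory particle caps the core: a ring of ATPases unfolds the substrate, other base subunits bind ubiquitin, and the lid removes the ubiquitin chain. Under interferon, and constantly in immune tissue, Psmb8, Psmb9 and Psmb10 take the places of the cutting subunits to form the immunoproteasome, and Psme1 and Psme2 form a cap of their own; both favour the production of peptides for MHC class I. When proteasomes are inhibited, the transcription factor NRF1 (Nfe2l1) raises the constitutive subunits together.

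Klf5 itself, the floxed gene, was lower in tamoxifen cells. Its log2 fold (tamoxifen over ethanol) was −1.72 (SE 0.08) at 24 h and −1.29 (SE 0.23) at 12 h in the authors' deposited table. The means summed to 11.8 M normalised counts at 24 h and 13.9 M at 12 h, of which the proteasome genes made up 0.656% at 24 h and 0.797% at 12 h. Of 10 biliary markers, Krt8, Krt18, Krt19, Spp1, Sox9 and Cdh1 had high means at both times, while Epcam (9.56 normalised counts at 24 h and 15.7 at 12 h in the authors' deposited table) and Cldn7 (0.245 and 1.12) were near 0. Immune cell markers summed to 77.9 normalised counts at 24 h and 80.5 at 12 h over 7 genes, nearly all of it Cd68, with Cd3e and Adgre1 at 0 and Ptprc at 0.613 and 2.28 in the authors' deposited table. Fibroblast markers summed to 11.3 normalised counts at 24 h and 29.9 at 12 h, and endothelial markers to 1.84 and 1.89. Of the 7 hepatocyte markers, Cyp3a11 was at 0 at both times in the authors' deposited table. Alb (1.48 at 24 h and 3.68 at 12 h), Tat (0.117 and 0.276) and Serpina1a (7.14 and 12.6) were low there. Hnf4a (4146 and 7584), Apoa1 (448 and 1291) and Ttr (267 and 685) were well above 0 there.

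Most proteasome genes were well expressed in these cells: 44 of the 46 measured had a mean of at least 100 normalised counts at both times, as did 9007 of the 14981 genes with a p at both times. The exceptions were Psmb8 and Psmb9. Levels between genes are compared as the mean normalised count per kb of merged exons, which removes gene length and mixes the tamoxifen and ethanol libraries of a time. By merged exons the highest level was that of Psma6, an alpha subunit, with 1980 per kb at 24 h and 2649 per kb at 12 h. By the length of the principal transcript Psmb6 lay above Psma6 at both times, with 2745 against 2345 per kb at 24 h and 4072 against 3138 per kb at 12 h, so the order depends on the length taken. The median of the 7 measured alpha subunits was 574 per kb at 24 h and 1037 per kb at 12 h, and that of the 7 constitutive beta subunits 593 and 1199 per kb. The 6 ATPases had medians of 862 and 1678 per kb, and the 8 lid subunits 659 and 859 per kb. Assembly chaperones and the inhibitor stood lower: the median of the 4 core chaperones was 263 per kb at 24 h and 327 per kb at 12 h, and Psmf1 had 87.7 and 111 per kb. The testis-specific alpha subunit Psma8 and the thymus-specific beta subunit Psmb11 were listed at 0 at both times; a total of 3 reads over all libraries would give a mean of about 0.374 at 24 h and 0.428 at 12 h. The tables of the times were normalised separately, and the levels at 24 h and 12 h were not tested against each other.

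**Figure D1:**
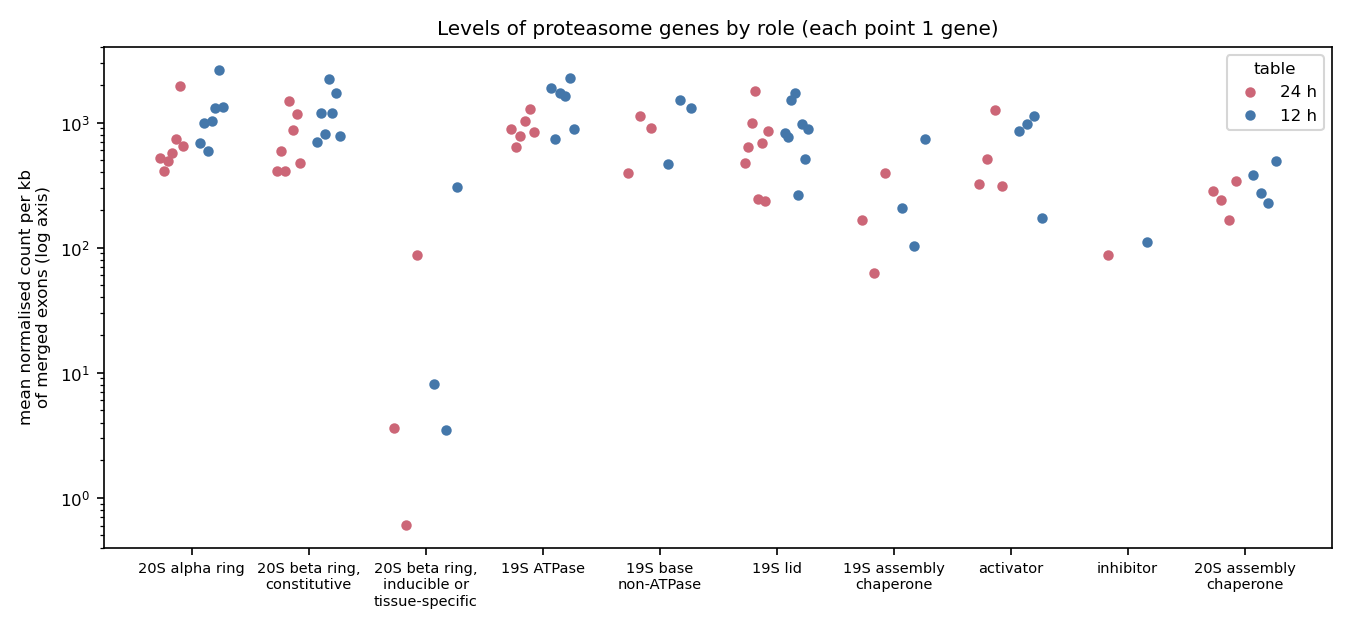
Mean normalised count per kb of merged exons (log axis) of each proteasome gene by role, from the table of 24 h (red) and of 12 h (blue); each point is 1 gene and genes at 0 are not drawn. Psmb8 and Psmb9 lie at 8.19 per kb or lower, far below the constitutive beta subunits, and Psmb10 lies between them.

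Among the immune subunits, Psmb8 and Psmb9 were nearly silent and Psmb10 was not. Psmb8 had 3.64 per kb at 24 h and 8.19 per kb at 12 h, which is 0.415% and 0.682% of the level of Psmb5, the subunit it replaces. Psmb9 had 0.608 and 3.50 per kb, or 0.0519% and 0.202% of its counterpart Psmb6. Psmb10 had 87.7 per kb at 24 h and 305 per kb at 12 h, or 18.3% and 39.2% of Psmb7. With the length of the principal transcript in place of merged exons, these shares became 8.05% and 17.3% for Psmb10 and 0.862% and 1.42% for Psmb8, so they depend on the transcript taken. Psme1 and Psme2, the chains of the interferon-inducible cap, had 323 and 511 per kb at 24 h, below Psme3, the nuclear activator, with 1260 per kb. At 12 h Psme1 and Psme2 had 864 and 976 per kb and Psme3 had 1122 per kb; with principal transcripts both chains lay above Psme3 at 12 h, at 138% and 144% of it.

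At 24 h, 6 proteasome genes passed the test, 2 higher and 4 lower in tamoxifen cells, and most other folds were small. Psmb10 and Psme1 rose. Psmd6, Psmd14 and Psmd8 of the lid and Psmb3 of the core fell. A gene counted as called where the authors' Wald test, after Benjamini-Hochberg adjustment, gave an adjusted p under 0.05 in their deposited table. Of all genes with an adjusted p, 12.4% were called at 24 h, 5.9% higher and 6.52% lower (14.2% of those with a mean of 100 normalised counts or more), and the 6 members are 13.3% of the 45 with an adjusted p. The share called among the proteasome genes was therefore near that of all genes, and the count says nothing particular about the group. At an unadjusted p under 0.05 there were 18 members of 46 with a p, against 18% of all genes, or 26.8% of the genes with a mean of 100 or more, a level that 44 members reached. Of the 18, 14 members, or 30.4% of the 46, were lower in tamoxifen cells, against 9.08% of all genes and 13.9% of those with a mean of 100 or more.

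At 12 h no proteasome gene was called in the authors' table, where the lowest adjusted p of a member by the authors' Benjamini-Hochberg adjusted Wald test was 0.315, and 0.943% of all genes were called. At an unadjusted p under 0.05 there were 2 members at 12 h, Psmb10 and Psmb9, against 4.9% of all genes. The spread between libraries that the SEs imply, as a coefficient of variation, had a median of 5.85% over the measured members at 24 h and 11.6% at 12 h. Over all genes with a mean of at least 100 it was 7.32% at 24 h and 14.3% at 12 h.

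**Figure D2:**
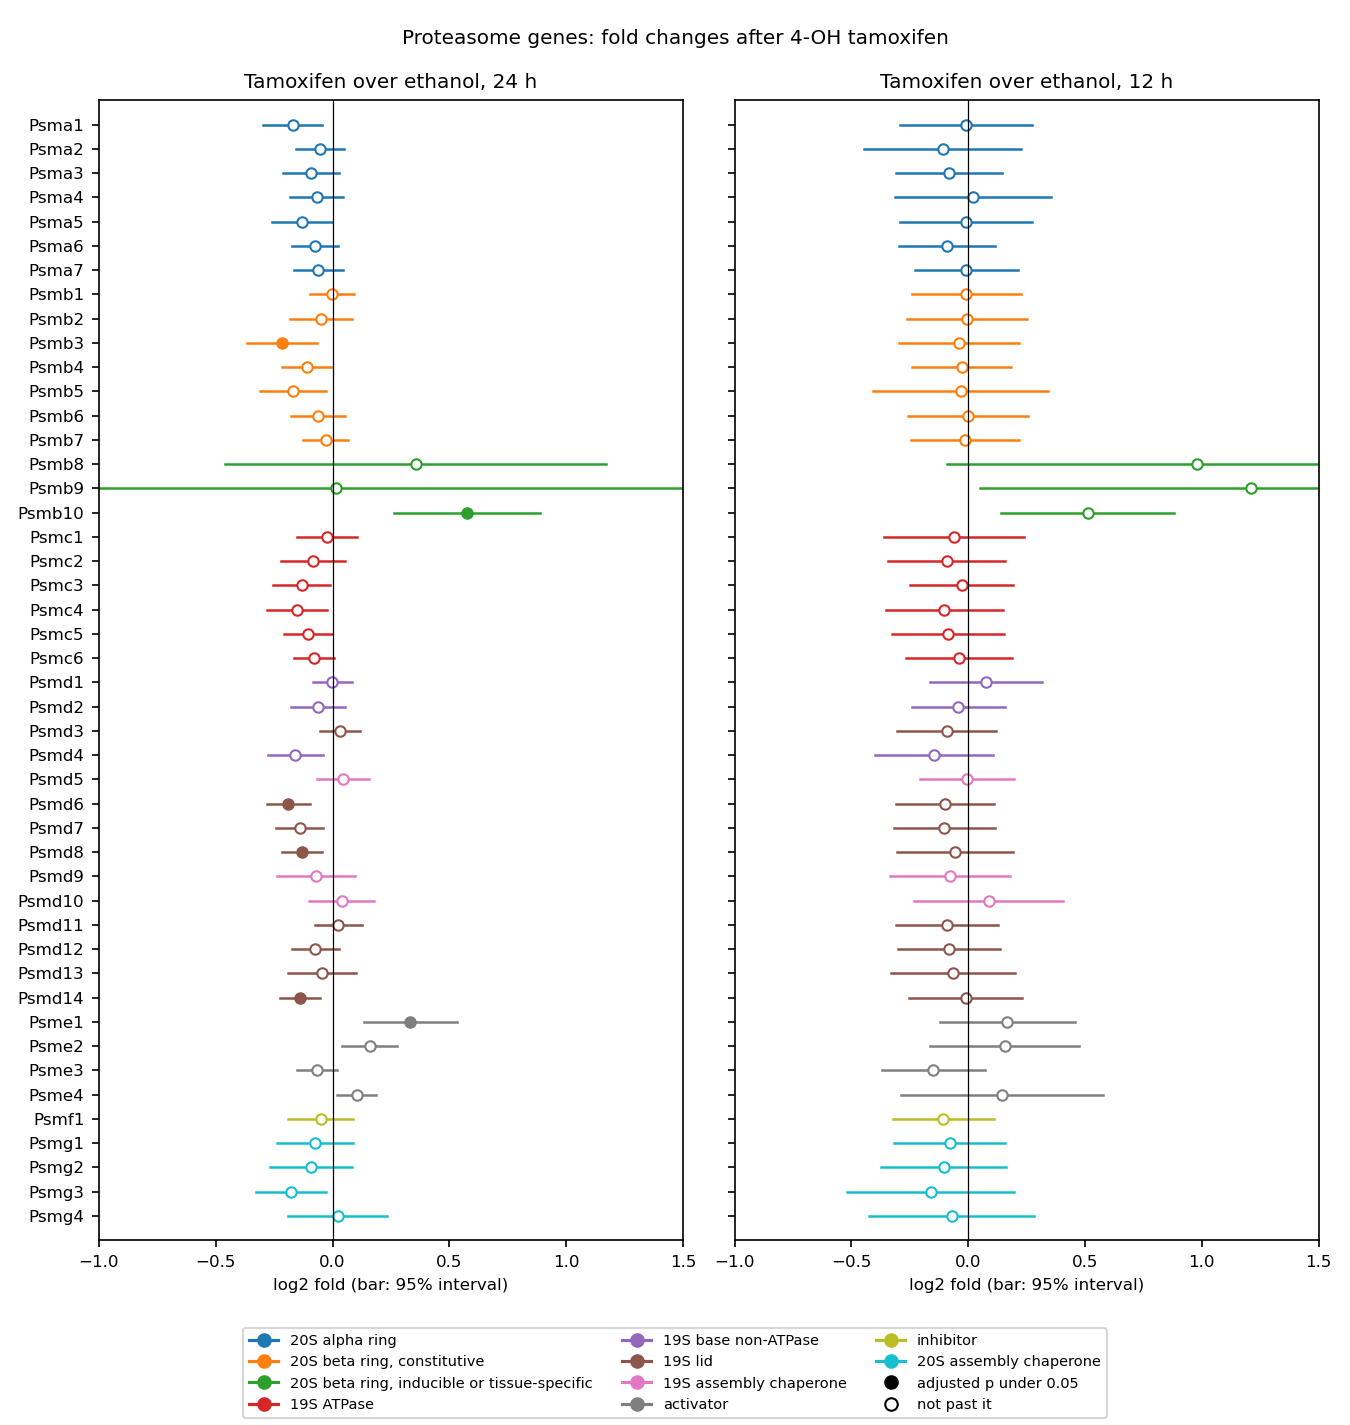
Log2 fold (tamoxifen over ethanol) of the 46 measured proteasome genes at 24 h (left) and 12 h (right), coloured by role; bars are 95% intervals from the SE and filled points passed an adjusted p under 0.05. Bars of Psmb8 and Psmb9 run past the axis, which ends at −1 and 1.5. Most points lie slightly left of 0 at both times. Psmb8, Psmb9, Psmb10, Psme1, Psme2, Psme4 and Psmd10 lie right of it at both times, Psmb9 at 24 h by 0.01 (SE 0.92).

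Psmb10, the trypsin-like subunit of the immunoproteasome (chromosome 8, 105935735 to 105938444, minus strand, GRCm38), had the largest fold of the called members. The authors' mean and fold imply 179 normalised counts in tamoxifen cells, against 120 in ethanol cells, at 24 h, and 596 in tamoxifen cells, against 418 in ethanol cells, at 12 h. Its log2 fold at 24 h was 0.58 (SE 0.16, adjusted p = 0.00463 by the Benjamini-Hochberg adjusted Wald test of the authors' deposited table). At 12 h its log2 fold was 0.51 (SE 0.19), the highest Wald score of the members, and its adjusted p by that test was 0.315 in the authors' deposited table. Psmb10 in tamoxifen cells was thus at 149% of the ethanol level at 24 h, where it passed the adjusted test, and at 143% at 12 h, where it did not.

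The other immune subunits were too low to place. Psmb8, the chymotrypsin-like one, had an implied 13.8 normalised counts in tamoxifen cells, against 10.8 in ethanol cells, at 24 h, and 35.1 in tamoxifen cells, against 17.8 in ethanol cells, at 12 h. Its log2 fold was 0.36 (SE 0.42) at 24 h and 0.98 (SE 0.54) at 12 h in the authors' deposited table, with adjusted p = 0.675 and 0.964 by their Wald test. Psmb9 had an implied 2.23 normalised counts in tamoxifen cells, against 2.21 in ethanol cells, at 24 h, and 16.9 in tamoxifen cells, against 7.32 in ethanol cells, at 12 h. Its log2 fold at 12 h was 1.21 (SE 0.59, adjusted p = 0.81 in the authors' Wald test, from the authors' deposited table), and at 24 h it has no adjusted p there. Their 95% intervals at 24 h span −0.46 to 1.17 for Psmb8 and −1.79 to 1.82 for Psmb9 on the log2 scale, so both a rise of 25% and the matching fall lie inside them. The constitutive cutting subunits were not called at 24 h: Psmb5 had a log2 fold of −0.17 (SE 0.07), Psmb6 −0.06 (SE 0.06) and Psmb7 −0.03 (SE 0.05) in the authors' deposited table.

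Of the 4 activators, Psme1 was called at 24 h and the others were not. Psme1 (chromosome 14, 55578123 to 55581529, plus strand), the alpha chain of the interferon-inducible cap, had an implied 797 normalised counts in tamoxifen cells, against 632 in ethanol cells, at 24 h. Its log2 fold there was 0.33 (SE 0.10, adjusted p = 0.0128 by the Benjamini-Hochberg adjusted Wald test of the authors' deposited table). At 12 h Psme1 had an implied 2001 normalised counts in tamoxifen cells, against 1783 in ethanol cells, a log2 fold of 0.17 (SE 0.15) that was not called in the authors' deposited table. Psme2 (chromosome 14, 55587441 to 55591113, minus strand), the beta chain, had an implied 951 normalised counts in tamoxifen cells, against 852 in ethanol cells, at 24 h. Its log2 fold was 0.16 (SE 0.06) at 24 h and 0.16 (SE 0.16) at 12 h in the authors' deposited table; the adjusted p at 24 h was 0.0594 by their Benjamini-Hochberg adjusted Wald test. Of the 50-base stretches in the transcripts of Psme2, 28.3% also occur in transcripts of other genes, so its value depends on how the authors counted shared reads. Psme3, the nuclear activator, had an implied 3629 normalised counts in tamoxifen cells, against 3804 in ethanol cells, at 24 h, and log2 folds of −0.07 (SE 0.04) at 24 h and −0.15 (SE 0.11, the lowest Wald score of the members) at 12 h in the authors' deposited table. Its adjusted p at 12 h was 0.999 by the authors' Benjamini-Hochberg adjusted Wald test in their deposited table. Psme4, a large nuclear activator made of a single chain, had log2 folds of 0.10 (SE 0.04) and 0.14 (SE 0.22) there, and was called at neither time.

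The promoters of Psmb10, Psme1 and Psme2, called higher in tamoxifen cells when both times were combined, and of Psmd6 and Psmd14, called lower, are shown as examples of the genes called in each direction. Each run holds 300 bases, 250 before and 50 after the start that RefSeq gives on GRCm38.p6, 5′ to 3′ on the gene's strand, and capitals mark every match to the motifs named after them. They lie at chr8:105938343-105938642 (Psmb10), chr14:55578244-55578543 (Psme1), chr14:55591052-55591351 (Psme2, 1 of its 2 windows), chr14:14120896-14121195 (Psmd6) and chr2:61711444-61711743 (Psmd14).
Psmb10: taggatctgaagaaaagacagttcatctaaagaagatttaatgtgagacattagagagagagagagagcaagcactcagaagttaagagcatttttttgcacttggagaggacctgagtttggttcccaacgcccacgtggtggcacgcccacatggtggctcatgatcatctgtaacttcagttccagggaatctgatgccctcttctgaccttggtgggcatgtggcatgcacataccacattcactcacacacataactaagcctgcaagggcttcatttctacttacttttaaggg
Psme1: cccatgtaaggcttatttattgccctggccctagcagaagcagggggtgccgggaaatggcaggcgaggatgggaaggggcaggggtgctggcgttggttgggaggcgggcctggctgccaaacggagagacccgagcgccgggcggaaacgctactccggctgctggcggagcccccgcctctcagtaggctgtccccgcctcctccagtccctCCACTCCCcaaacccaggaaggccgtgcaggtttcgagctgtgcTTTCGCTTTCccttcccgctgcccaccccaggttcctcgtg
Psme2: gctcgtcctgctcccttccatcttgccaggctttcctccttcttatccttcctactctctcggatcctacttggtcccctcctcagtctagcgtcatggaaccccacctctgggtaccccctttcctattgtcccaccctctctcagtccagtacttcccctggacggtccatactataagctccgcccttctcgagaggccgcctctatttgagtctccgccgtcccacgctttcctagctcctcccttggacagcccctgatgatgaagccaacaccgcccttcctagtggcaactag
Psmd6: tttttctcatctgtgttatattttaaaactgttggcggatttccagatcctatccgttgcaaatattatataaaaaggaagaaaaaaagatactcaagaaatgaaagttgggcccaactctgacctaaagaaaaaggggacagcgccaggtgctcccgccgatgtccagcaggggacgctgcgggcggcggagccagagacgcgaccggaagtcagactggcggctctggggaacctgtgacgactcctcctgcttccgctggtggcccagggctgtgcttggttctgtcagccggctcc
Psmd14: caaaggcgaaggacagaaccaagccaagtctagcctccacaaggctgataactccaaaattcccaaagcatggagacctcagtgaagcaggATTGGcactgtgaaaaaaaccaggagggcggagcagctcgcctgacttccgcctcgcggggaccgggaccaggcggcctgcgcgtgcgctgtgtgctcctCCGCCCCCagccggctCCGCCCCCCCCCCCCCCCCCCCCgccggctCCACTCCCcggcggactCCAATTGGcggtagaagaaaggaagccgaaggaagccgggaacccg

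RefSeq windows were taken for 40 of the 48 members, 43 windows of 32851 in all, and both strands were searched. For the members, windows on chromosome 18, where Psma8 and Psmg2 lie, were left out. The interferon response element (GAAANNGAAA) was found in 5 of the 43 windows, or 11.6%, against 3.44% of all windows; of the interferon-inducible genes it was in the window of Psme1 alone, starting at base 10 after the start on the opposite strand. The other windows with it belong to Psmb3, Psmd4, Psmd9 and Psmg4. A STAT site (TTCNNNGAA) was in 6.98% of the members' windows and 8.3% of all, and of the interferon-inducible genes in that of Psmb8 alone. The antioxidant response element (TGACNNNGC), a site that NRF1 and NRF2 can bind, was in 14% of the members' windows and 12.4% of all. CCAAT, the letters of the CCAAT box, were in 32.6% and 37.4%, and in the window of Psmd14 they lie at 3 places. A Krüppel-like factor site (CCNCNCCC), the kind Klf5 can bind, was in 53.5% of the members' windows and 49.5% of all, among them Psme1 and, as overlapping matches in a run of C, Psmd14. In the windows printed for Psmb10, Psme2 and Psmd6 none of these letters occur; the second window of Psme2, which is not printed, holds the Krüppel-like factor letters. The windows of Psme1, Psmb8 and Psmb9 lie wholly inside the bounds that GENCODE gives these genes. The bases before those GENCODE starts were therefore not searched. A match is a description of the letters and not a bound site.

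Of the 8 lid subunits, 3 were called lower in tamoxifen cells at 24 h, against 6.52% of all genes; with so few subunits nothing particular to the lid is read from this count. Psmd6 (chromosome 14, 14112174 to 14120984, minus strand), a scaffold subunit of the lid, had an implied 1657 normalised counts in tamoxifen cells, against 1890 in ethanol cells. Its log2 fold was −0.19 (SE 0.05, adjusted p = 0.00101 by the Benjamini-Hochberg adjusted Wald test of the authors' deposited table), the lowest Wald score of the members. Psmd14 (chromosome 2, 61711694 to 61800376, plus strand), the metalloprotease that cuts off the ubiquitin chain, had an implied 2303 normalised counts in tamoxifen cells, against 2537 in ethanol cells. That is a log2 fold of −0.14 (SE 0.04, adjusted p = 0.0161 by the Benjamini-Hochberg adjusted Wald test of the authors' deposited table). Psmd8 (chromosome 7, 29174188 to 29180701, minus strand), the lid subunit that joins last in assembly and had the highest level of the lid, had an implied 5266 normalised counts in tamoxifen cells, against 5771 in ethanol cells. Its log2 fold was −0.13 (SE 0.04, adjusted p = 0.0231 by the Benjamini-Hochberg adjusted Wald test of the authors' deposited table). In size, tamoxifen cells held 87.7% of the ethanol level of Psmd6, 90.8% of that of Psmd14 and 91.3% of that of Psmd8. In bulk samples fewer cells of a type and less RNA per cell cannot be told apart.

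At 12 h the same lid subunits had log2 folds of −0.10 (SE 0.11) for Psmd6, −0.01 (SE 0.12) for Psmd14 and −0.06 (SE 0.13) for Psmd8 in the authors' deposited table, and none was called. Psmd7, the partner of Psmd14 in the deubiquitinating pair, had an implied 2148 normalised counts in tamoxifen cells, against 2369 in ethanol cells, at 24 h. Its log2 fold of −0.14 (SE 0.05) just missed the threshold there, with adjusted p = 0.0509 by the Benjamini-Hochberg adjusted Wald test of the authors' deposited table. The remaining lid subunits, Psmd3, Psmd11, Psmd12 and Psmd13, had log2 folds between −0.07 and 0.03 at 24 h in the authors' deposited table. All 8 lid subunits had 95% intervals within ±0.32 on the log2 scale (a rise of 25% or the matching fall) at 24 h.

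In the base, 0 of 6 ATPases and 0 of 3 other subunits were called at 24 h, against 12.4% of all genes. All 6 ATPases had log2 folds below 0 at both times in the authors' deposited table, from −0.15 (Psmc4) to −0.02 (Psmc1) at 24 h and from −0.10 (Psmc4) to −0.03 (Psmc3) at 12 h. At an unadjusted p under 0.05, 3 of them were lower at 24 h: Psmc3, Psmc4 and Psmc5. Of all genes 9.08% were lower at that threshold, and of those with a mean of 100 or more 13.9%. With so few ATPases nothing particular to the ring is read from this count. Psmd4, a ubiquitin receptor of the base, had an implied 2406 normalised counts in tamoxifen cells, against 2686 in ethanol cells, at 24 h. Its log2 fold was −0.16 (SE 0.06) at 24 h and −0.15 (SE 0.13) at 12 h in the authors' deposited table, and the adjusted p at 24 h was 0.0594 by their Benjamini-Hochberg adjusted Wald test. The large scaffold subunits had folds closer to 0: Psmd1 had a log2 fold of −0.00 (SE 0.04) and Psmd2 of −0.06 (SE 0.06) at 24 h in the authors' deposited table.

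In the 20S core the call of Psmb3 was the only one among constitutive subunits. Psmb3 (chromosome 11, 97703399 to 97713500, plus strand), a beta subunit with no cutting site, had an implied 878 normalised counts in tamoxifen cells, against 1020 in ethanol cells, at 24 h. Its log2 fold was −0.22 (SE 0.08, adjusted p = 0.0426 by the Benjamini-Hochberg adjusted Wald test of the authors' deposited table). Adjusting over all genes with a p gave it an adjusted p of 0.0577 by the authors' Wald p-values with Benjamini-Hochberg adjustment, which ends the call, and 17.8% of its 50-base stretches occur in other genes. At 12 h Psmb3 had a log2 fold of −0.04 (SE 0.13) in the authors' deposited table.

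The other constitutive core subunits were not called. The 7 alpha subunits had log2 folds from −0.17 (Psma1) to −0.05 (Psma2) at 24 h and from −0.11 (Psma2) to 0.02 (Psma4) at 12 h in the authors' deposited table. The 6 constitutive beta subunits besides Psmb3 had log2 folds from −0.17 (Psmb5) to −0.00 (Psmb1) at 24 h in the authors' deposited table. All 7 alpha subunits and 6 of the 7 constitutive beta subunits, Psmb3 being the exception, had 95% intervals within ±0.32 on the log2 scale at 24 h. Psmb5 and Psma5 share 54.1% and 49.1% of their 50-base stretches with other genes, so their values also depend on the counting.

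The assembly factors and the inhibitor were called at neither time. Of the chaperones that build the ATPase ring, Psmd10 and Psmd5 had log2 folds of 0.04 (SE 0.07) and 0.04 (SE 0.06) and Psmd9 of −0.07 (SE 0.08) at 24 h in the authors' deposited table. Of the chaperones that build the alpha ring, Psmg3 had a log2 fold of −0.18 (SE 0.08) at 24 h in the authors' deposited table, with adjusted p = 0.113 by their Benjamini-Hochberg adjusted Wald test; Psmg1, Psmg2 and Psmg4 had −0.07, −0.09 and 0.02. Psmf1, which encodes a protein first described as an inhibitor of the core, had log2 folds of −0.05 (SE 0.07) at 24 h and −0.11 (SE 0.11) at 12 h in the authors' deposited table, where its adjusted p by the Benjamini-Hochberg adjusted Wald test was 0.734 at 24 h and 0.999 at 12 h. Of the exon bases of Psmd9, 25.5% overlap a gene on the opposite strand, as do 14.7% of those of Psmb8, 11.8% of Psmb7 and 10.1% of Psmd13, and the library kit does not mark the strand, so their values can hold reads of the neighbour. The same holds for Psmb9, of whose exon bases 5.79% overlap Tap1 on the opposite strand. Tap1 had means of 151 normalised counts at 24 h and 247 at 12 h, against 2.22 and 12.8 for Psmb9.

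Across the members, small folds below 0 were more common than across all genes. At 24 h, 35 of the 46 measured members, or 76.1%, had a log2 fold below 0, against 52.4% of all genes with a mean of at least 100. At 12 h there were 37 of 46, or 80.4%, against 51.7%. Of the 31 measured constitutive subunits of core and regulatory particle, 29 were below 0 at 24 h and 29 at 12 h, and both their medians were small, −0.08 at 24 h and −0.04 at 12 h on the log2 scale. The median log2 fold over all measured members was −0.07 at 24 h and −0.04 at 12 h, and that of all genes with a mean of at least 100 was −0.01 at both times. The members were read in the same libraries, so their folds at a time are not independent of each other, and no test was made over the list.

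**Figure D3:**
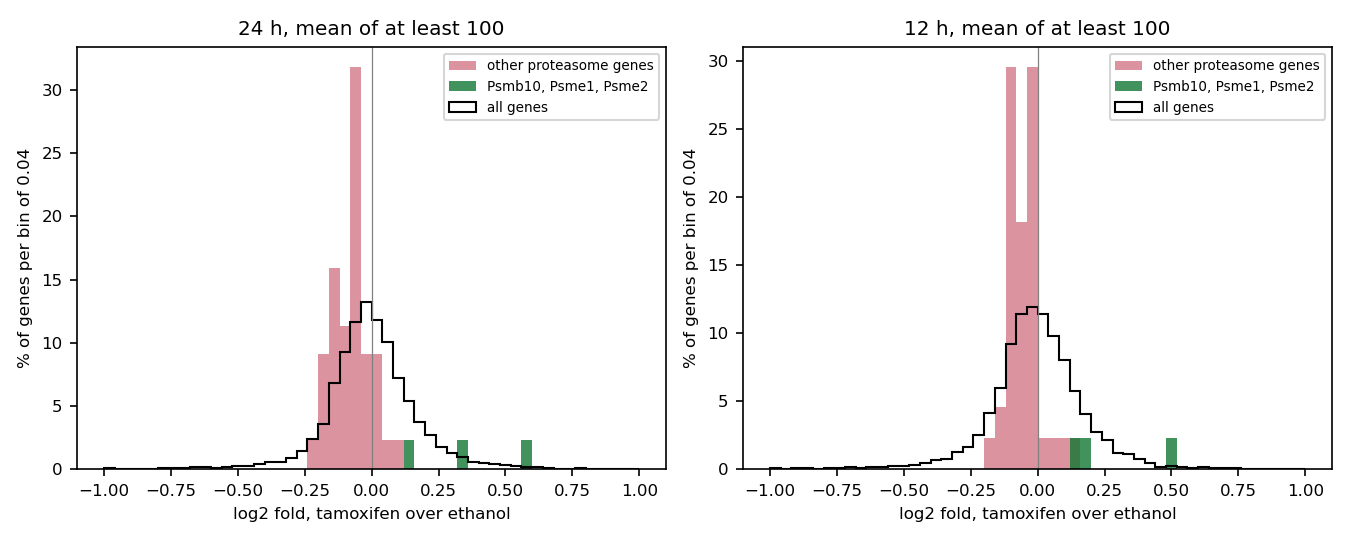
Distribution of log2 folds (tamoxifen over ethanol) at 24 h (left) and 12 h (right), for genes whose mean reached 100 normalised counts, as percent of genes per bin of 0.04. Bars are the 44 proteasome genes that reach this mean, with Psmb10, Psme1 and Psme2 in green; the line is all genes. The bulk of the proteasome genes sits just left of 0 and well inside the spread of all genes.

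Most members were measured closely enough at 24 h to bound their change. The 95% interval of the log2 fold lay wholly within ±0.32 for 40 of the 46 measured members at 24 h and 25 of 46 at 12 h. Among the 44 members with a mean of at least 100 this was 90.9% and 56.8%, against 71.4% and 22.4% of all such genes. These 44 had high levels, with a median mean of 1744 normalised counts at 24 h and 2477 at 12 h. Level and membership are thus not separated in this comparison. Of the 46, the exceptions at 24 h were Psmb3, Psmb8, Psmb9, Psmb10, Psme1 and Psmg3. For Psmb1, for example, the interval ran from −0.10 to 0.09 on the log2 scale.

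Both times were then combined as the mean of the log2 folds weighted by their precision, since they share no library. This called 8 members, or 17.4% of 46, at an adjusted p under 0.05 (z test with Benjamini-Hochberg adjustment over 14981 genes), against 10.5% of all genes (4.84% higher, 5.67% lower) and 14.8% of those with a mean of at least 100 at both times. Psmb10 had a mean log2 fold of 0.55 (SE 0.12, adjusted p = 0.00019), Psme1 of 0.28 (SE 0.08, adjusted p = 0.0116) and Psme2 of 0.16 (SE 0.06, adjusted p = 0.0459) by this z test across all genes. Psmd6 had −0.18 (SE 0.04, adjusted p = 0.001), Psmd14 −0.13 (SE 0.04, adjusted p = 0.0271) and Psmd8 −0.12 (SE 0.04, adjusted p = 0.0274) by the same z test. Psmd4 and Psmd7, just short of the threshold at 24 h, had −0.16 (SE 0.05, adjusted p = 0.0393) and −0.13 (SE 0.05, adjusted p = 0.0425) by the same z test. With both times weighted equally, Psmb10 alone was called, while the mean log2 folds of Psme1 (0.25), Psme2 (0.16), Psmd4 (−0.15), Psmd6 (−0.14), Psmd7 (−0.12), Psmd8 (−0.09) and Psmd14 (−0.08) kept their sign.

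No difference of the members' response between the times was detected. In the difference of log2 folds, 24 h minus 12 h, 0 members were called (z test with Benjamini-Hochberg adjustment), and 0 had an unadjusted p under 0.05, the lowest being 0.246. Of all genes, 0.0134% were called and 1.64% had an unadjusted p under 0.05. For Psmb10 the difference was 0.06 (SE 0.25) and for Psmd14 −0.13 (SE 0.13) on the log2 scale, and these SEs set how small a difference could be seen. Log2 folds lay above 0 at both times for 7 members: Psmb8, Psmb9, Psmb10, Psme1, Psme2, Psme4 and Psmd10. Psmb8 and Psmb9 are too low to place, with log2 folds of 0.36 (SE 0.42) and 0.01 (SE 0.92) at 24 h. Of all genes with a mean of at least 100 at both times, 32.3% were above 0 at both times. Another 33 members, 71.7% of 46, were below 0 at both times, against 36.8% of those genes.

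Genes that work with the proteasome were read from lists of their own. Of 9 measured proteasome genes that the naming rule misses, among them Adrm1, a ubiquitin receptor, Shfm1, the smallest lid subunit, and Pomp, the core maturation factor, 0 were called at 24 h and 0 of 10 at 12 h, with 1 and 0 at an unadjusted p under 0.05 in the authors' Wald test. Of all genes, 12.4% were called at 24 h and 0.943% at 12 h, and 18% and 4.9% had an unadjusted p under 0.05. With so few genes nothing particular is read from these counts. Of 10 genes of the NRF1 and NRF2 pathway that controls proteasome genes, 1 fell at 24 h, against 6.52% of all genes: Mafk, a small Maf protein that pairs with these factors, had a log2 fold of −0.35 (SE 0.05, adjusted p = 1.25e-08 by the Benjamini-Hochberg adjusted Wald test of the authors' deposited table). Nfe2l1, which encodes NRF1, had log2 folds of −0.03 (SE 0.04) at 24 h and 0.14 (SE 0.42) at 12 h in the authors' deposited table and was called at neither time. Nfe2l2, which encodes NRF2, had log2 folds of 0.09 (SE 0.07) at 24 h and 0.25 (SE 0.09) at 12 h there. It was called at neither time, with adjusted p = 0.287 at 12 h by the authors' Benjamini-Hochberg adjusted Wald test.

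Of 12 ubiquitin genes and E1 or E2 enzymes, 1 rose at 24 h, against 5.9% of all genes called higher. This was Uba7, whose product activates not ubiquitin but the ubiquitin-like, interferon-induced ISG15, with a log2 fold of 0.96 (SE 0.24, adjusted p = 0.00127 by the Benjamini-Hochberg adjusted Wald test of the authors' deposited table). Of 18 shuttle factors and partners of the unfolding ATPase p97, 1 rose and 2 fell at 24 h, where 12.4% of all genes were called in either direction. Zfand5, whose protein binds the proteasome, had a log2 fold of 0.27 (SE 0.05), Zfand2a, which is induced by arsenite, −0.33 (SE 0.06), and the shuttle factor Ubqln2 −0.18 (SE 0.05) in the authors' deposited table. Of 13 cytosolic heat shock chaperones and their regulators, again against 5.9% of all genes, 1 rose at 24 h, Hspa4, by a log2 fold of 0.11 (SE 0.04) in the authors' deposited table. None of these 3 lists held a call at 12 h, where 0.943% of all genes were called.

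The list of MHC class I peptide processing, which takes up the peptides that proteasomes make, held 4 genes that rose and 0 that fell at 24 h, of 14, against 5.9% of all genes called higher and 6.52% called lower. Tapbp, which encodes tapasin and holds MHC class I at the peptide transporter, had a log2 fold of 0.49 (SE 0.09, adjusted p = 4.33e-06 by the Benjamini-Hochberg adjusted Wald test of the authors' deposited table). Irf1, a transcription factor of the interferon response, had log2 folds of 0.45 (SE 0.07) at 24 h and 0.55 (SE 0.15) at 12 h in the authors' deposited table and was called at both times, the 1 call of the list at 12 h. Erap1, which trims peptides in the endoplasmic reticulum, had 0.30 (SE 0.06) and Canx, the chaperone calnexin, 0.11 (SE 0.03) at 24 h in the authors' deposited table. The class I chains themselves were not called: H2-K1 had a log2 fold of −0.12 (SE 0.07) and B2m of −0.05 (SE 0.04) at 24 h in the authors' deposited table. The peptide transporter Tap1 had 0.31 (SE 0.13) there and was not called. The median log2 fold of the list was 0.09 at 24 h and 0.10 at 12 h. These genes were read in the same libraries as Psmb10, Psme1 and Psme2. Of the immune markers given above, Cd68 had a mean of 76.1 normalised counts at 24 h and 76.4 at 12 h. Ptprc was near 0 and Cd3e and Adgre1 at 0, and whether other cells add to these folds was not tested.

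**Figure D4:**
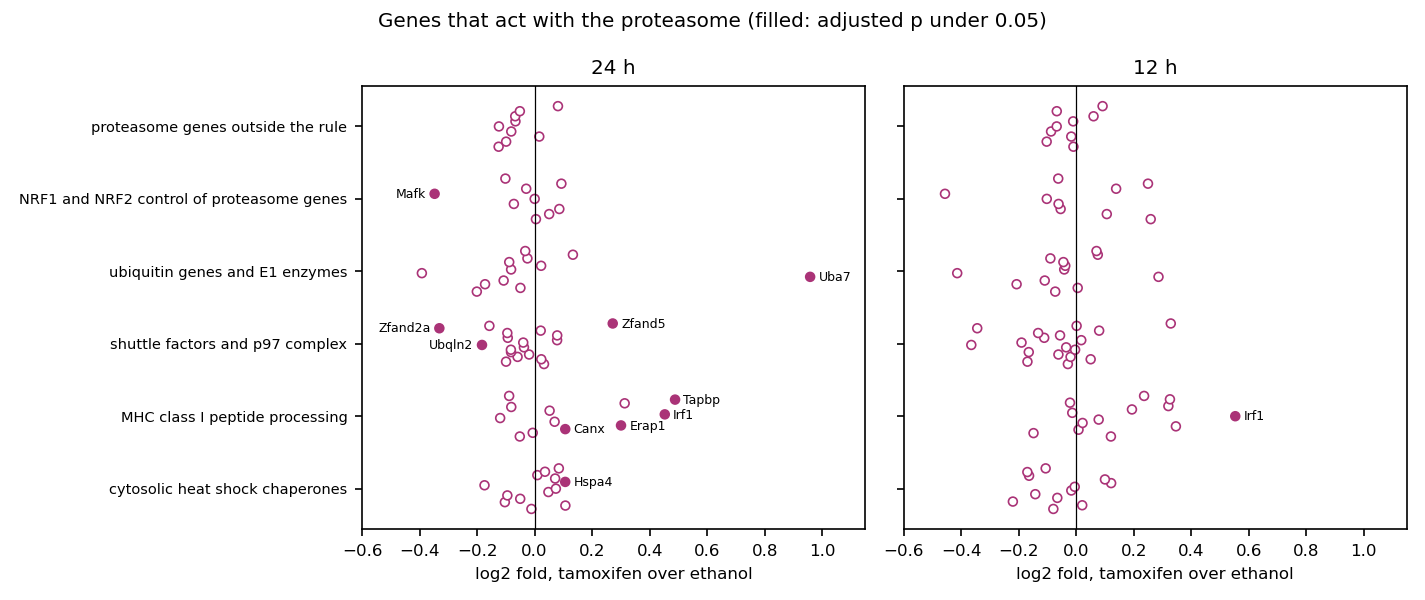
Log2 fold (tamoxifen over ethanol) of genes in 6 lists that act with the proteasome at 24 h (left) and 12 h (right); each point is 1 gene whose mean reached 50 normalised counts, filled where the adjusted p was under 0.05. At 24 h 4 filled points of MHC class I processing lie right of 0, and at 12 h the single filled point is Irf1.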

How the data were processed

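Libraries were prepared with the TruSeq RNA kit v2, which does not mark the strand, and HISAT2, DESeq2 and mm10 are named in the submitters' processing notes without versions. Which counting tool, annotation and model formula were used is not given in the sources used here. Per the file headers, the authors' tables hold for each gene the mean normalised count over the libraries of a time (a signal in normalised counts), the log2 fold change with its SE, the Wald score and a raw and an adjusted p-value. The direction was checked on genes seen in 1 read at 12 h: 7 lowest means, 3 with negative and 4 with positive folds, as 3 ethanol and 4 tamoxifen libraries require. At 24 h the split was 4 and 4, which checks nothing, and Klf5 was negative at both times. The precision of a fold is that of its deposited SE.

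The tables hold no counts, so the planned fallback applied: calls are the authors' adjusted p under 0.05, which is blank for 1 measured member at 24 h. Computed here, with Python 3.11.15, numpy 2.4.6, pandas 2.3.3 and scipy 1.17.1, were the level in each group that the mean and fold imply, normal 95% intervals, the coefficient of variation implied by the SE, the inverse-variance mean of the folds over both times, and their difference, the last 2 with two-sided z tests; the scripts were tested on simulated data. Lengths, positions and shared stretches come from GENCODE M21 (GRCm38), and promoters from RefSeq (GRCm38.p6). All members, roles and related lists were chosen with earlier results of these data known. Members called in any test, and those with the 3 highest and 3 lowest scores at a time, are given in full, and genes of related lists are named where called. Other named genes were chosen after their values were seen. Some genes of the marker and related lists are counted in their lists but not reported here by name.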

Additional observations from a re-analysis of the deposited data

How the results depend on the processing

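No paired analysis was possible because the deposited tables hold no value per library, and for the same reason no library could be left out in turn; both were planned and not run. Of 53 counts and medians under an alternative, 46 kept within 1.5 times the reported count or, for medians, within the members' median SE. That SE was 0.06 at 24 h and 0.13 at 12 h, wider at 12 h than the median of −0.04 itself. Keeping within it therefore says little about the medians at 12 h, and at 24 h the SE was close in size to the median of −0.07. All medians stayed below 0. The counts that kept include those that were 0 in both settings, at 12 h and in the difference between the times. Of 54 values of single called genes, 43 stayed past the threshold, 11 lost the call, and none changed sign. The 43 include settings that could not remove a call, namely the looser threshold of 0.1 and the addition of Adrm1, Shfm1 and Pomp to the members. At an adjusted p under 0.1 in place of 0.05, 11 members were called at 24 h, 4 higher and 7 lower, the additions being Psma1, Psmd4, Psmd7, Psme2 and Psme4. With both times weighted equally, 1 member was called in the mean over both times, 1 higher (Psmb10) and 0 lower, and the 7 lost kept their sign, with mean log2 folds from −0.15 to 0.25. With the median fold of the genes with a mean of at least 100 set to 0, 3 were called lower, without Psmd4 (−0.15) and Psmd7 (−0.13). The cause was not tested. Setting the median fold to 0 also replaced Psmb3 (adjusted p = 0.0533 by the recentred Wald test with Benjamini-Hochberg adjustment) with Psme2 at 24 h. At 12 h 0 members were called under each of 5 alternatives. Without Psmb8, Psmb9, Psmb10, Psme1 and Psme2, a setting chosen after seeing the data, the median log2 fold was −0.07 at 24 h and −0.06 at 12 h. With the length of principal transcripts, also chosen after seeing the data, levels against a partner gene moved by over 1.5 times for Psmb8, Psmb10, Psme1 and Psme2 and not for Psmb9. Depth limits Psmb8 and Psmb9, whose means were 12.3 and 2.22 normalised counts at 24 h in the authors' deposited table.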
